A study of Mus musculus with 24 samples.

Results

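The 8 genes described here, Acta2, Tagln, Myh11, Cnn1, Des, Myl9, Lmod1 and Mylk, encode the contractile apparatus that marks vascular smooth muscle. They were chosen by name, with earlier results of these data known. Each was found as 1 row among the 17270 genes of the normalized count table. All 8 had a mean above 5 normalized counts and so belonged to the 15982 genes that were tested.

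RNA was sequenced from brain microvessels of male C57BL/6J mice aged 10 to 12 weeks that had undergone transient middle cerebral artery occlusion (tMCAO) for 60 min or a sham operation, in which the filament was pulled back at once. Vessels of the ipsilateral and of the contralateral hemisphere were collected at 24 h or 7 days, which gives 8 groups: sham contralateral, sham ipsilateral, tMCAO contralateral and tMCAO ipsilateral at each time point. Each group held 3 libraries, and each library pooled 3 hemispheres, so that 1 value averages over 3 animals. The preparation took off the meninges, removed large vessel pieces on a strainer and named no sorting of cells, so the libraries mix endothelium, pericytes, smooth muscle and adhering brain cells. The labels number the libraries but do not say how animals were assigned to pools, so p-values measure the spread between these pools.

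In smooth muscle, calcium binds calmodulin and switches on myosin light chain kinase, which phosphorylates the regulatory light chain of myosin and lets the myosin heavy chain pull on actin filaments. Calponin and transgelin bind along those filaments, leiomodin builds them from actin monomers, and desmin filaments tie the apparatus to the rest of the cell. In the brain these cells ring the arteries and arterioles and set local blood flow, while pericytes on capillaries carry lower levels of several of the same proteins. Serum response factor with its partner myocardin switches on many of the genes through the CArG box, a stretch of A and T bases between CC and GG.

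Promoters are shown for Myl9 and Acta2, the members in whose RefSeq promoter such a box was found and the highest of the 8 genes per length. Of the 8 members, 6 had a promoter in the RefSeq table (GRCm38.p6, 250 bases before to 50 after the start), and Tagln and Myh11 did not. Capitals mark the CArG box, counted here with at most 1 base other than A or T in its core. The Myl9 stretch lies at chr2:156775270-156775419 on the plus strand and the Acta2 stretch at chr19:34255374-34255523 on the minus strand, both 5′ to 3′.
Myl9: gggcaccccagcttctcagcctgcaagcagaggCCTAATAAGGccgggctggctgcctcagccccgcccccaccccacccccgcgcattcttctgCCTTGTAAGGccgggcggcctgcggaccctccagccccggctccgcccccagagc
Acta2: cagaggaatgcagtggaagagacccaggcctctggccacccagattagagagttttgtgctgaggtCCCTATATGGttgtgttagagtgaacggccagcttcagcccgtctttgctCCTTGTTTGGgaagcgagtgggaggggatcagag
Positions of boxes count back from the RefSeq start, which differs for both genes from the GENCODE start given below. The printed Myl9 stretch runs from 194 to 45 bases before the RefSeq start, and the Acta2 stretch from 150 to 1. The Myl9 box from 161 to 152 bases before the RefSeq start has a core of A and T alone. The box from 99 to 90 bases before it has 1 other base. Both Acta2 boxes, from 84 to 75 and from 34 to 25 bases before the start, have 1 other base. Among all 32851 promoters of the same length, 1.63% held a box with a pure core and 9.98% held a box with at most 1 other base. The pattern reads the same on both strands, and no box was found in the windows of Cnn1, Des, Lmod1 and Mylk.

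The values are counts that the authors normalized with DESeq2 and rounded, and fold changes are differences of log2(normalized count + 1) from limma, in which low genes are understated. Here "called" means a Benjamini-Hochberg adjusted p under 0.05 over all 15982 genes together with a change beyond 1.5-fold. Totals of the normalized counts ranged from 15924780 to 18787932 per library with a median of 16953257. They are totals after scaling, and the number of reads behind each library is unknown from them. The 8 genes took 0.206 to 0.703% of a library's total.

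Across the 5 comparisons with the ipsilateral tMCAO hemisphere, Myl9 was the member that was called: it was lower than in sham at 24 h and higher at 7 days than at 24 h. The other 7 members were not called in any of them. Against sham at 24 h, 1 of 8 members was called lower and 0 higher, while 8.23% of all tested genes were called lower and 10.0% higher. The median log2 fold change of the 8 members was -0.54, and that of all tested genes was -0.02. Against sham at 7 days 0 of 8 members were called by limma and 0 had an unadjusted p under 0.05, while 13.2% of all tested genes were called, 3.27% higher and 9.95% lower. The members' median at 7 days was -0.25 beside 0.02 for all tested genes.

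Between the hemispheres of tMCAO mice, fitted without a replicate block, 0 members were called by limma at 24 h, where 1 had an unadjusted p under 0.05 and 13.7% of all genes were called. Between the same hemispheres at 7 days 0 were called by limma, 0 had an unadjusted p under 0.05 and 13.0% of all genes were called. From 24 h to 7 days in the ipsilateral tMCAO hemisphere, 1 of 8 members was called higher, beside 3.72% of all genes. The difference of the stroke effects between the time points was called for 0 members, with 0 at an unadjusted p under 0.05 and 8.12% of all genes called. Fewer smooth muscle cells in a pool and less RNA per cell cannot be told apart in such bulk samples.

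**Figure D1:**
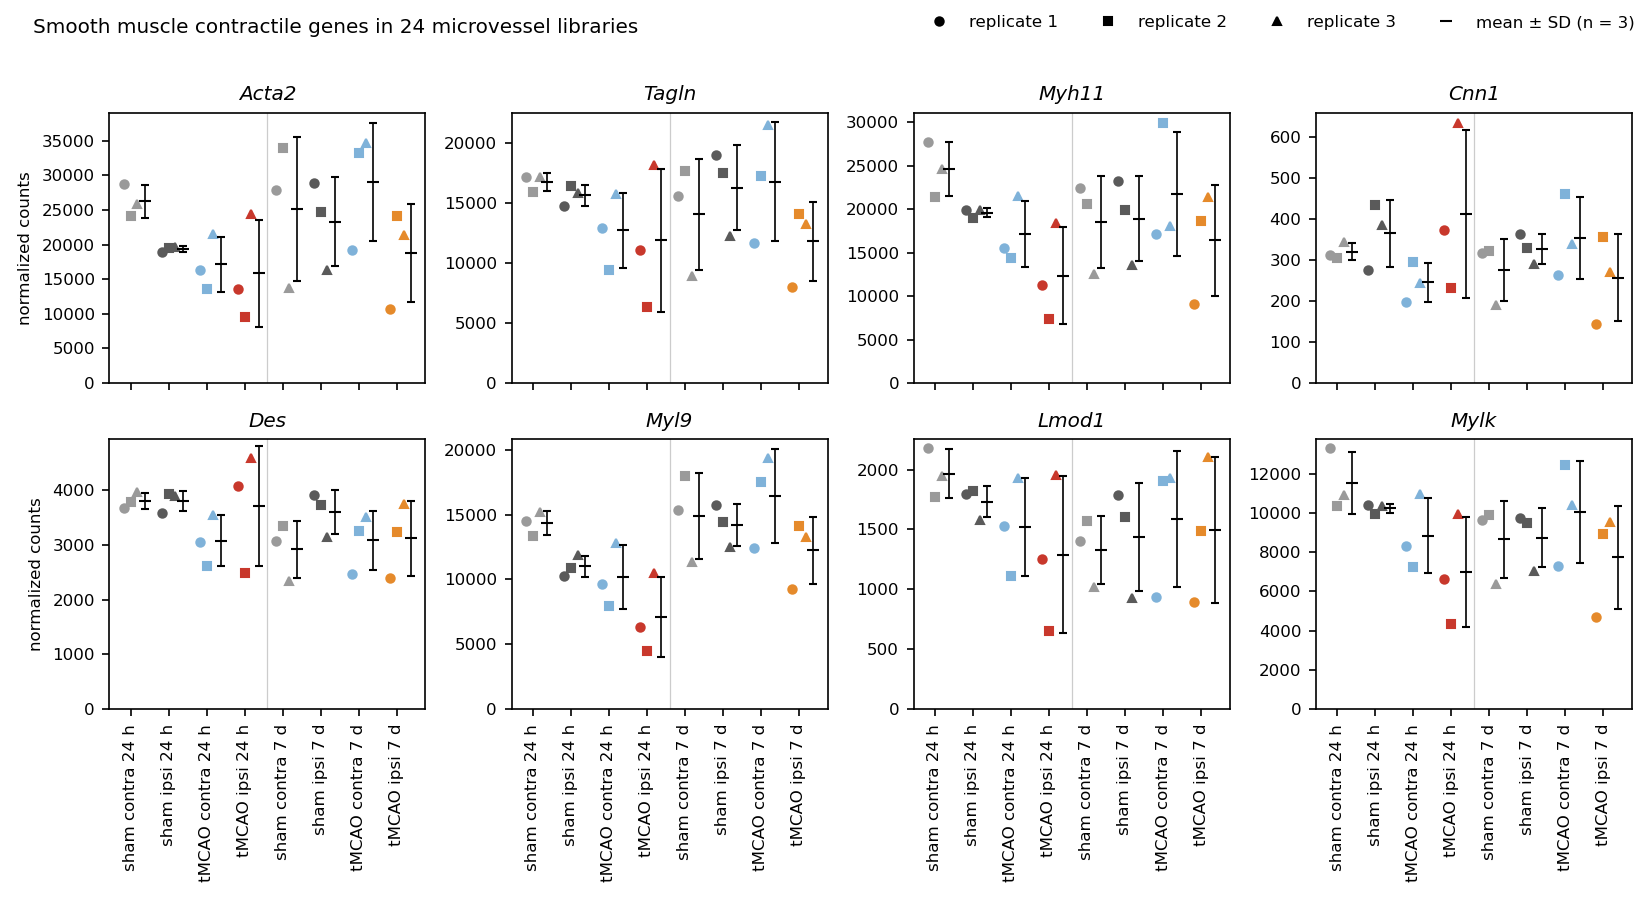
Normalized counts of the 8 genes (vertical axes from 0) in each of the 24 libraries, by group, with the mean ± SD of 3 libraries beside them; circles, squares and triangles are replicates 1, 2 and 3. The 3 ipsilateral tMCAO libraries at 24 h (red) spread from 4488 to 10510 for Myl9 and from 232 to 635 for Cnn1, with replicate 3 the highest in all 8 genes.

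Per kilobase of exon, Myl9 and Acta2 were the highest, with medians of 10900 and 9762 normalized counts per kb over 24 libraries. Tagln followed with 7893 and Myh11 with 2558 per kb. Des had a median of 940.3 per kb and Mylk 859.9. Lmod1 had 402.9 and Cnn1 114.9 per kb, and Cnn1 was the lowest in 24 of 24 libraries. Myh11 was the fourth and Lmod1 the seventh in all 24, whereas Myl9, Acta2 and Tagln changed places among the first 3 ranks and Des and Mylk between ranks 5 and 6. Spread between pools of the same group was wide: the within-group SD of the log2 values lay between 0.263 for Des and 0.492 for Lmod1, beside a median of 0.176 over the 10953 genes with a mean of at least 100.

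Myl9 encodes the regulatory light chain whose phosphorylation turns smooth muscle myosin on. The gene lies at chr2:156775420-156781658 (plus strand, GRCm38, GENCODE). At 24 h its normalized counts were 10282, 10914 and 11850 in the ipsilateral sham libraries and 6330, 4488 and 10510 in the ipsilateral tMCAO libraries. The means were 11015 ± 789 and 7109 ± 3086 (SD, n = 3), and the ranges overlapped because tMCAO replicate 3 lay above the lowest sham library. The log2 fold change was -0.72 with a standard error of 0.25 and an adjusted p of 0.0372 in limma. That standard error rests on a spread pooled over the 8 groups, and the call was lost with only the compared groups in the fit. This call depended on which libraries were in the fit: it was kept in 1 of 6 fits that left out a library, with log2 fold changes from -1.04 to -0.43 and adjusted p from 0.00317 to 0.229. Without tMCAO replicate 2 the fold change was -0.43, and without replicate 3 it was -1.04.

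Contralateral levels of Myl9 at 24 h were 14472, 13372 and 15180 in sham and 9667, 7975 and 12830 in tMCAO libraries. The contralateral tMCAO libraries thus all lay below the contralateral sham libraries, and the ipsilateral sham libraries lay below them as well; of all tested genes 8.20% and 11.5% did not overlap in these comparisons. Neither of these differences was called, with log2 fold changes of -0.52 (adjusted p = 1.0) and -0.38 (adjusted p = 1.0) in limma. Between the hemispheres of tMCAO mice at 24 h the Myl9 log2 fold change was -0.58 with an adjusted p of 0.102, and without ipsilateral replicate 3 it was -0.90 and called (adjusted p = 0.00972).

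At 7 days the ipsilateral tMCAO libraries held 9295, 14158 and 13250 normalized counts of Myl9 and the ipsilateral sham libraries 15707, 14450 and 12495. Those ranges overlapped, and the log2 fold change was -0.23 with an adjusted p of 0.597. Within the ipsilateral tMCAO hemisphere the mean rose from 7109 at 24 h to 12234 ± 2586 at 7 days, a log2 fold change of 0.85 with a standard error of 0.25 and an adjusted p of 0.0234. The ranges of the 2 time points overlapped, and the call was kept in 2 of 6 fits that left out a library, where the fold change ran from 0.56 to 1.18 and the adjusted p from 0.00237 to 0.142. With only the compared groups in the fit this call was lost. The same step in time was 0.70 in the contralateral tMCAO hemisphere (adjusted p = 0.183), 0.36 in the ipsilateral sham hemisphere (adjusted p = 0.566) and 0.03 in the contralateral sham hemisphere (adjusted p = 0.985). The test of the difference itself, the tMCAO effect at 7 days minus that at 24 h, gave 0.48 with an adjusted p of 0.411.

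Myh11, the smooth muscle myosin heavy chain and the most specific marker of the cell type among the 8, lies at chr16:14194527-14291408 on the minus strand. Its ipsilateral values at 24 h were 19864, 19014 and 19942 in sham and 11319, 7389 and 18367 in tMCAO libraries. All 3 tMCAO libraries lay below all 3 sham libraries. Such a gap between the groups was found for 2 of 8 members, Myh11 and Mylk, and for 49.0% of all tested genes. The log2 fold change of Myh11 was -0.76 with a standard error of 0.33 and an adjusted p of 0.0860, which missed the threshold. Without tMCAO replicate 3 it was -1.10 and called (adjusted p = 0.0210), and without replicate 2 it was -0.44 (adjusted p = 0.375). At 7 days, values of 9158, 18656 and 21431 in tMCAO overlapped those of 23246, 19947 and 13625 in sham, with a log2 fold change of -0.26.

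Mylk encodes myosin light chain kinase and lies at chr16:34784921-35002420 on the plus strand. At 24 h its values were 10386, 9962 and 10328 in the ipsilateral sham libraries and 6636, 4362 and 9935 in the ipsilateral tMCAO libraries. The highest tMCAO library (9935) lay just under the lowest sham library (9962). The log2 fold change was -0.63 with a standard error of 0.28 and an adjusted p of 0.0978. Leaving out tMCAO replicate 3 gave -0.93 and a call (adjusted p = 0.0223), and leaving out replicate 2 gave -0.33 (adjusted p = 0.436). The groups overlapped at 7 days, with a log2 fold change of -0.23. The exons of Mylk overlap those of E130310I04Rik and Gm21691 in the annotation, and the strand setting of the counting is not given in the sources used here, so reads could have been shared.

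Acta2, smooth muscle alpha-actin, lies at chr19:34241090-34255336 on the minus strand. Its ipsilateral values at 24 h were 18893, 19453 and 19684 in sham and 13645, 9524 and 24437 in tMCAO libraries. The sham pools lay within 1.042-fold of each other, whereas tMCAO replicate 3 exceeded every sham pool and replicates 1 and 2 fell short of them. The log2 fold change was -0.40 with an interval from -1.15 to 0.36. At 7 days tMCAO libraries held 10766, 24126 and 21376 normalized counts ipsilaterally and 19215, 33193 and 34664 contralaterally, a log2 fold change of -0.66 between the hemispheres with an adjusted p of 0.260 in the fit without a replicate block. Actin genes resemble each other in sequence and reads that matched several genes were excluded by the authors. How far this touches the level of Acta2 is not known here.

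Tagln, which encodes transgelin (SM22 alpha), lies at chr9:45929619-45936058 on the minus strand. At 24 h its values were 14744, 16416 and 15848 in the ipsilateral sham and 11148, 6361 and 18230 in the ipsilateral tMCAO libraries. The tMCAO pools again surrounded the sham pools. The log2 fold change was -0.52 at 24 h (adjusted p = 0.231) and -0.48 at 7 days (adjusted p = 0.358). The 24 h value was called without tMCAO replicate 3 (-0.89, adjusted p = 0.0437) and was -0.13 without replicate 2. Exons of Tagln overlap those of Pcsk7 and Gm48529.

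Lmod1, leiomodin 1, lies at chr1:135324807-135368065 on the plus strand. The ipsilateral values at 24 h were 1794, 1824 and 1581 in sham and 1257, 653 and 1958 in tMCAO libraries, the widest spread of any member in any group, 2.998-fold from the lowest to the highest pool. Its log2 fold change was -0.56 at 24 h (adjusted p = 0.248) and 0.03 at 7 days (adjusted p = 0.973). The 7-day interval ran from -0.73 to 0.78 and so excluded neither a 1.5-fold decrease nor a 1.5-fold increase.

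Cnn1, calponin 1, which binds actin and restrains myosin, lies at chr9:22099216-22109630 on the plus strand. Its ipsilateral values were 276, 436 and 385 in sham and 373, 232 and 635 in tMCAO libraries, and 199, 295 and 244 in contralateral tMCAO libraries. The mean of 413 ± 205 in the ipsilateral tMCAO libraries was the highest of the 8 groups, whereas the same group had the lowest mean for Acta2, Myh11, Myl9, Lmod1 and Mylk. The log2 fold change was 0.08 against sham (adjusted p = 0.869) and 0.64 against the contralateral hemisphere (adjusted p = 0.158), and neither passed the test. Without ipsilateral tMCAO replicate 2, Cnn1 was called higher than in the contralateral hemisphere (adjusted p = 0.0423) and lower at 7 days than at 24 h (-1.01, adjusted p = 0.0472, beside -0.65 with all libraries). Its 7-day mean was 258 ± 107 ipsilaterally in tMCAO and 328 ± 36.5 in sham.

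Des encodes desmin, the intermediate filament of muscle, which brain pericytes also make, and lies at chr1:75360329-75368579 on the plus strand. Ipsilateral values at 24 h were 3591, 3930 and 3894 in sham and 4082, 2485 and 4580 in tMCAO libraries, a log2 fold change of -0.08 with an interval from -0.50 to 0.34. That interval rests on a spread pooled over the 8 groups, and only on that basis did it exclude a 1.5-fold change in either direction. The ipsilateral tMCAO libraries themselves spread 1.843-fold, so the compared groups alone do not settle whether such a change is excluded. The 7-day log2 fold change was -0.22 (adjusted p = 0.510). Des was the steadiest of the 8 genes, with group means between 2919 and 3806. Its exons overlap those of Gm15179.

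In the order of the 8 group means, the neighbouring groups overlapped in every one of the 7 steps for each of the 8 genes. The ratio of the highest to the lowest group mean was 2.31 for Myl9, 1.992 for Myh11, 1.829 for Acta2, 1.68 for Cnn1, 1.651 for Mylk, 1.525 for Lmod1, 1.422 for Tagln and 1.304 for Des. The contralateral tMCAO group at 7 days had the highest mean for Acta2, Tagln and Myl9. The contralateral sham group at 24 h had it for Myh11, Des, Lmod1 and Mylk.

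**Figure D2:**
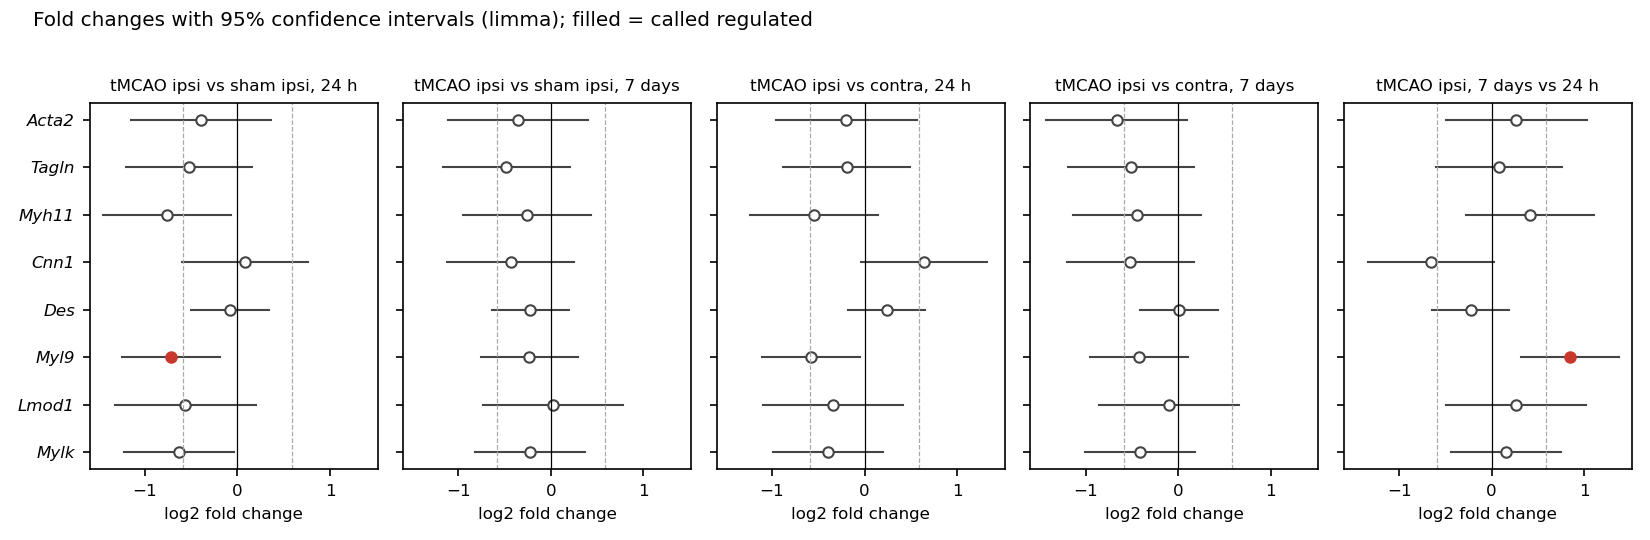
Log2 fold changes of the 8 genes (horizontal axes) with 95% confidence intervals from limma in 5 comparisons; dashed lines mark 1.5-fold and filled points are called. The filled points are Myl9 against sham at 24 h (-0.72) and Myl9 at 7 days against 24 h (0.85).

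Comparisons between control groups, fitted without a replicate block, gave the background for these values. Over the 7 of them limma called 0 of the 8 members, and 1 value had an unadjusted p under 0.05, Myl9 in the contralateral tMCAO hemisphere at 7 days against 24 h. Of all tested genes 0.00% were called between the sham hemispheres at either time, between the contralateral hemispheres at 24 h and over time in the contralateral tMCAO hemisphere, 0.0313% between the contralateral hemispheres at 7 days, and 0.476% and 0.332% over time in the ipsilateral and contralateral sham hemispheres. At 24 h all 8 members were lower in the contralateral hemisphere of tMCAO than of sham mice, with log2 fold changes from -0.64 for Acta2 to -0.32 for Des and a median of -0.41. The groups did not overlap for Acta2, Tagln, Cnn1, Des and Myl9, 5 of 8 members, where 8.20% of all genes did not overlap. Every adjusted p was 1.0. At 7 days the sign was the opposite for all 8 members, from 0.08 for Des to 0.36 for Cnn1, with adjusted p from 0.781 to 0.945. The contralateral tMCAO libraries also serve in the comparison of hemispheres, so the 2 comparisons share samples.

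The 8 genes moved together from pool to pool within a group. Over 24 libraries, Pearson's r of the deviations from the group means had a median of 0.906 over the 28 pairs of members, from 0.71 for Cnn1 with Lmod1 to 0.972 for Tagln with Myl9. The pairs share libraries and their scaling. Replicate 2 of the ipsilateral tMCAO libraries at 24 h was the lowest of its group in 8 of 8 members and replicate 3 the highest in 8 of 8, with a median distance of 2.526-fold. In the ipsilateral sham libraries at 24 h that distance was 1.104-fold. The lowest library of the group was shared by all 8 members in all 4 groups at 7 days as well: replicate 3 in both sham groups and replicate 1 in both tMCAO groups.

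Other cell types moved with some of these pools. The mean log2 level of 12 pericyte markers was 11.45 in ipsilateral tMCAO replicate 2 at 24 h, the lowest of the 24 libraries, 11.9 in replicate 1 and 12.04 in replicate 3. The ipsilateral sham libraries at 24 h lay between 11.88 and 12.4. In both sham groups at 7 days the pool with the lowest members, replicate 3, had the highest pericyte mean of its group. It was 12.06 beside 12.01 and 11.88 contralaterally, and 12.16 beside 11.96 and 11.9 ipsilaterally. In tMCAO replicate 1 at 7 days it was 11.66 beside 11.69 and 11.79 contralaterally, and 11.64 beside 11.57 and 11.75 ipsilaterally. Of these markers 4 of 12 (Rgs5, Vtn, Higd1b and Atp13a5) were lower and 0 higher in tMCAO than in sham at 24 h, and Vtn and Atp13a5 were lower at 7 days. Among all tested genes 8.23% were called lower at 24 h and 9.95% at 7 days. Naming Rgs5 and Higd1b was a choice made with their values in view. Fibroblast markers were also the lowest of their group in ipsilateral tMCAO replicate 2 at 24 h, at 8.57 beside 8.87 and 9.35. So were microglia and macrophage markers (8.2 beside 8.35 and 8.91) and choroid plexus markers (6.6 beside 7.21 and 7.62). The endothelial, astrocyte, neuron, oligodendrocyte and proliferation means were the highest of the group in that pool. The mean of 12 endothelial markers moved less, 14.52 to 14.66 in the ipsilateral tMCAO and 14.56 to 14.72 in the ipsilateral sham libraries at 24 h. The lowest gene of the pericyte list averaged 747 normalized counts over 24 libraries and that of the endothelial list 6210. Against sham at 24 h 1 endothelial marker was higher and 2 were lower. When each library was scaled to the pericyte markers, Myl9 was no longer called at 24 h (-0.38, adjusted p = 0.271), while its call at 7 days against 24 h was kept (0.99, adjusted p = 0.0154); this scaling was chosen after seeing the data. How far the number of mural cells in a pool shaped the members' values was not tested.

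In all 4 groups at 7 days the pool with the lowest members was also the lowest for the mean of 10 arterial endothelial markers and the highest for neutrophil and monocyte markers. Its arterial mean was 11.35 beside 11.81 and 11.87 in contralateral sham, 11.45 beside 11.89 and 11.89 in ipsilateral sham, 11.36 beside 11.5 and 11.68 in contralateral tMCAO, and 11.39 beside 11.42 and 11.68 in ipsilateral tMCAO libraries. Its neutrophil and monocyte mean was 6.83 beside 4.82 and 4.89, 7.24 beside 5.31 and 5.0, 7.42 beside 6.42 and 5.67, and 8.59 beside 7.81 and 6.25 in the same order of groups. At 24 h this held in the contralateral groups but in neither ipsilateral group. In ipsilateral tMCAO replicate 2, which had the lowest members, the arterial mean was 11.47 beside 11.36 and 11.55. The neutrophil and monocyte mean there was 8.68 beside 8.93 and 8.22. These 2 lists were singled out with their values in view. Same-numbered hemispheres may stem from the same animals, so the 4 groups need not be independent. The contralateral tMCAO pool with the lowest members at 7 days, replicate 1, had the highest means of its group for astrocyte markers (11.47 beside 10.02 and 10.21) and neuron markers (10.35 beside 8.94 and 9.02). Neutrophil and monocyte markers were higher in ipsilateral tMCAO than sham libraries at 24 h for 8 of 9 tested genes, with list means of 8.22 to 8.93 beside 5.11 to 6.67. Of the remaining lists, at 24 h 7 of 10 astrocyte, 2 of 8 oligodendrocyte, 1 of 11 fibroblast and 1 of 10 arterial endothelial markers were lower against sham, while 2 of 10 microglia and macrophage, 1 of 10 arterial endothelial and 1 of 8 tested proliferation markers were higher. At 7 days 4 of 10 astrocyte, 4 of 11 fibroblast, 6 of 8 choroid plexus, 1 of 8 oligodendrocyte, 1 of 10 microglia and macrophage and 1 of 10 arterial endothelial markers were lower, and 8 of 8 tested proliferation markers were higher. The shares of all tested genes called lower and higher were 8.23% and 10.0% at 24 h, and 9.95% and 3.27% at 7 days. The part of the cells marked by these lists in the members' values was not tested.

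**Figure D3:**
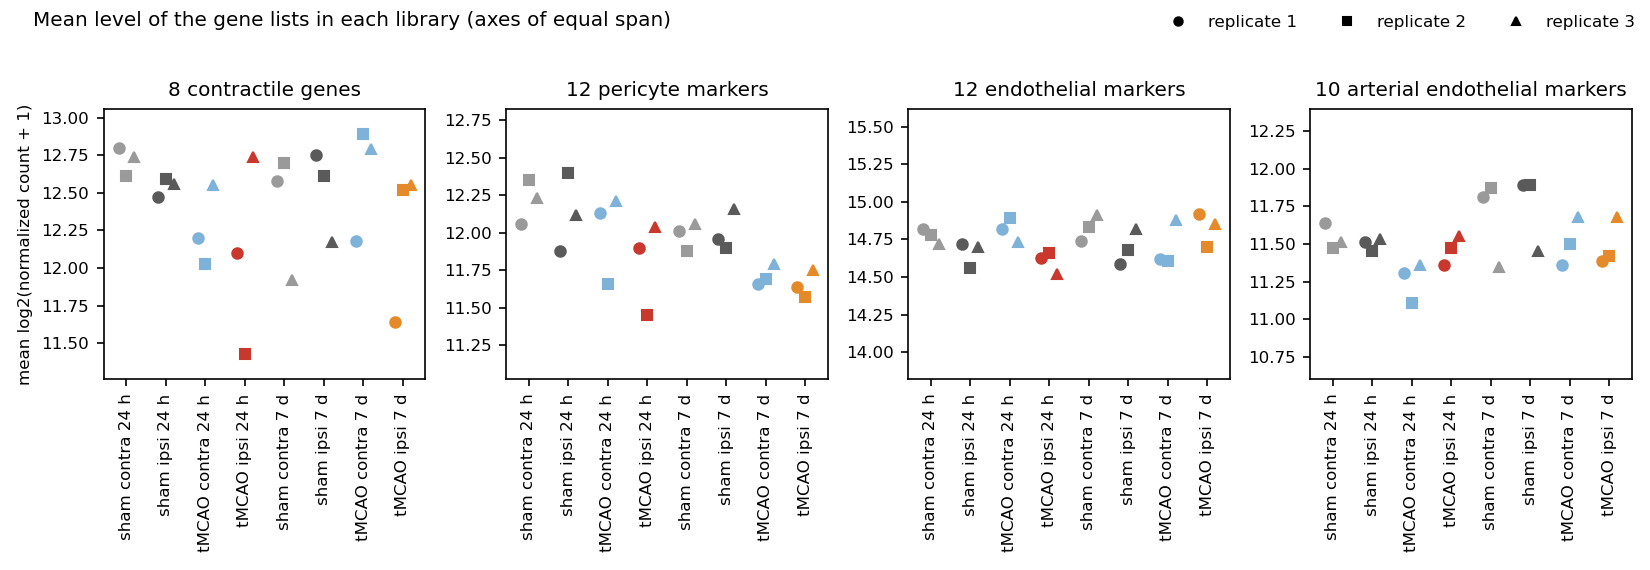
Mean log2(normalized count + 1) of the 8 contractile genes and of 3 marker lists (vertical axes of equal span, not from 0) in each library, by group. The contractile genes ranged from 11.43 to 12.74 among the 3 ipsilateral tMCAO libraries at 24 h (red), the pericyte markers from 11.45 to 12.04, and the endothelial markers from 14.52 to 14.66.

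Because the members rose and fell together, each was also set against the mean of the 8 genes in its own library. This removes a shift of equal log2 size in all 8, but not a common change that is larger in some genes. Within-group SDs differed, from 0.263 for Des to 0.492 for Lmod1. Each gene is also part of the mean, so a high value of 1 gene lowers the others on this scale. On this scale Cnn1 lay between 0.59 and 0.73 in the 3 ipsilateral tMCAO libraries at 24 h, above all 21 other libraries, whose highest value was 0.34. Myl9 lay between -0.60 and -0.42, below the lowest of the other 21 at -0.30. Those 21 mix the time points, between which Myl9 differed on this scale. Its other 24 h libraries lay between -0.30 and 0.022, and the 7-day libraries, sham included, between 0.02 and 0.423. The ipsilateral sham libraries at 24 h, at -0.265, -0.30 and -0.158, lay near the tMCAO values. For each of the other 6 members at least 1 of the 3 libraries lay inside the range of the other 21. These contrasts were chosen after the values were seen. When limma was run with each library scaled to the mean of the 8 genes, neither gene was called. Against sham at 24 h the log2 fold change was 0.53 for Cnn1 (adjusted p = 0.206) and -0.27 for Myl9 (adjusted p = 0.507). Against the contralateral hemisphere it was 0.82 for Cnn1 (adjusted p = 0.121) and -0.40 for Myl9 (adjusted p = 0.557). This scaling puts the members' spread between pools into every other gene, and with it into the estimate of spread that the genes share. The standard errors of the 8 genes were then 0.245 to 0.271, 0.264 for Cnn1 and 0.257 for Myl9. In the main fit they were 0.328 for Cnn1 and 0.253 for Myl9, so the error fell for Cnn1 and hardly moved for Myl9. Neither gene passed the test. Because the shared estimate holds the members' own spread, this fit cannot decide whether either gene changed relative to the others.

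Plain ratios restate the same normalized counts for pairs that hold Cnn1 or Myl9, the genes that stood apart above, and are not a second test. Per 100 counts of Myl9 there were 5.89, 5.17 and 6.04 counts of Cnn1 in the ipsilateral tMCAO libraries at 24 h, beside 2.68, 3.99 and 3.25 in ipsilateral sham, and 1.56 to 3.99 in the other 21 libraries. Per 100 counts of Myh11 there were 3.14 to 3.46 counts of Cnn1 beside 1.12 to 2.29 in the others. For Des per 100 Myl9 the ranges were 43.6 to 64.5 and 18.2 to 36.0, with 34.9, 36.0 and 32.9 in ipsilateral sham at 24 h. By 7 days the ipsilateral tMCAO ratio of Cnn1 to Myl9 was 1.56, 2.52 and 2.05. The first of these was the lowest of the 24 libraries, and the other 2 lay among those of the other groups. Between ipsilateral tMCAO and sham at 24 h the ratio did not overlap for 14 of 28 pairs of members, while it did not overlap for 46.2% of all pairs of tested genes. Between the tMCAO hemispheres at 24 h it was 17 of 28 pairs beside 38.6%, and between ipsilateral tMCAO and sham at 7 days 2 of 28 pairs beside 34.6%. Between the sham hemispheres at 24 h it was 12 of 28 pairs beside 11.8%.

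**Figure D4:**
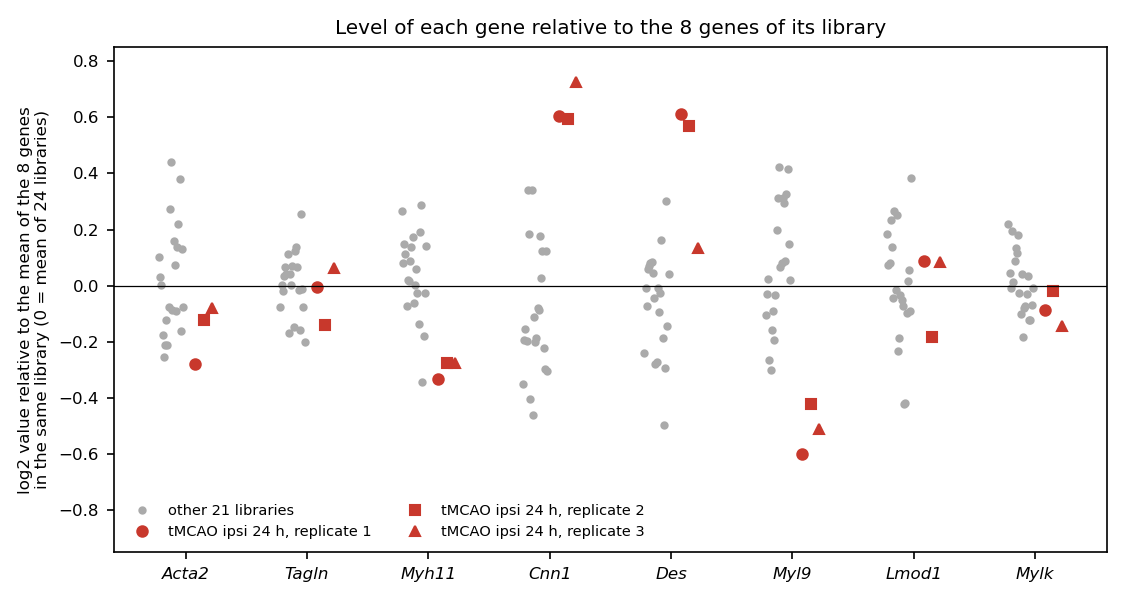
Log2 value of each gene relative to the mean of the 8 genes in the same library (vertical axis, 0 is the mean of 24 libraries), with the 3 ipsilateral tMCAO libraries at 24 h in red and the other 21 libraries, of both time points, in grey. The red points of Cnn1 (0.59 to 0.73) lie above, and those of Myl9 (-0.60 to -0.42) below, every grey point of the same gene.

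The wider contractile pathway was read from 4 lists of partner genes. Beside their counts, 8.23% of all tested genes were called lower and 10.0% higher against sham at 24 h. At 7 days 9.95% were called lower and 3.27% higher. Of 26 tested partners of actin and its filaments, 1 was higher and 4 lower in ipsilateral tMCAO than in sham libraries at 24 h, with a median log2 fold change of -0.17. Pdlim7, a scaffold at actin filaments, rose from 1110 ± 153 to 2097 ± 375 normalized counts (log2 fold change 0.91, adjusted p = 0.000883 in limma). Fhl1, Pdlim3 and Synpo2, named after their values were seen, were among the lower genes. At 7 days Csrp2 was higher (0.60, adjusted p = 0.0234) and Actg2, the gamma-actin of smooth muscle, was lower (-1.22, adjusted p = 0.0460) at 8 to 17 counts beside 19 to 37. The limit given for Acta2, that reads matching several genes were excluded, holds for Actg2 too.

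Of 20 genes of non-muscle myosin, its light chains and its phosphorylation control, limma called 0 in ipsilateral tMCAO against sham at 24 h and 0 at 7 days. At 24 h 13 of them had an unadjusted and 6 an adjusted p under 0.05, with changes under 1.5-fold, and at 7 days 3 and 2 had them. The median log2 fold changes of the list were -0.05 and 0.03. Among 22 transcription factors of the smooth muscle programme, 0 were called by limma at 24 h, where 4 had an unadjusted p under 0.05 (median log2 fold change -0.27, below 0 in 20 of 22), and 2 were lower at 7 days. Those 2 of 22 lie near the 9.95% of all tested genes that were called lower at 7 days. Heyl, a Notch target, fell from 1715 ± 344 to 949 ± 132 at 7 days (log2 fold change -0.84, adjusted p = 0.0254). The other, Tbx18, was named after its values were seen.

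Calcium handling, ion channels and vasoactive receptors held the most calls of the 4 lists. At 24 h 11 of 31 were lower and 2 higher in ipsilateral tMCAO than in sham libraries, with a median log2 fold change of -0.62, and at 7 days 6 were lower and 1 higher with a median of -0.28. The shares of all tested genes called lower and higher were 8.23% and 10.0% at 24 h, and 9.95% and 3.27% at 7 days. Adra1a, an alpha-1 adrenergic receptor, fell at both times, with 9 to 20 normalized counts beside 57 to 63 at 24 h (log2 fold change -1.89, adjusted p = 0.000212) and 7 to 15 beside 45 to 77 at 7 days (-2.21, adjusted p = 6.62e-05). Avpr1a, the vasopressin V1a receptor, had 35 to 194 counts beside 2 to 18 at 24 h (log2 fold change 3.35, adjusted p = 0.00315). The second higher gene at 24 h, named after its values were seen, was Ptgir, the prostacyclin receptor (0.87, adjusted p = 0.00606). Kcna5, a voltage-gated potassium channel, was higher at 7 days, with 1427 to 1943 beside 404 to 1041 counts (log2 fold change 1.46, adjusted p = 0.00512). Several genes of this list are also expressed by neurons, whose markers were lower for 6 of 10 genes at 24 h and 9 of 10 at 7 days, and the part of that in the list was not tested.

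Outside the 8 genes, the libraries' profile was followed most closely by Jph2, which encodes a junctophilin that holds the sarcoplasmic reticulum to the cell membrane (Pearson's r of 0.972 with the mean of the members' standardized values over 24 libraries, out of 13578 genes). Dmpk (0.95), Notch3 (0.947), Ntn4 (0.94) and Cacna1h (0.936) came next. Slit3, Sntb1, Myom1, Ppp1r12b and Slc38a11 completed the 10, with r from 0.934 to 0.925. Their log2 fold changes at 24 h against sham ran from -0.42 for Jph2 to -1.07 for Slc38a11, and limma called 0 of the 10 at either time, with 6 at an unadjusted p under 0.05 at 24 h and 0 at 7 days. Of all tested genes 8.23% were called lower and 10.0% higher at 24 h, and the share at an unadjusted p under 0.05 is not given here. The 10 were picked for following the members in these same libraries, so their changes restate those of the members and are not a second test. Notch3 is one of the 12 pericyte markers as well.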

How the data were processed

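Libraries were made by the authors with a stranded mRNA kit. Per the labels, the reads were aligned with STAR 2.5.2b to mm10 (GRCm38), counted with featureCounts 1.5.1 and normalized with DESeq2 1.6.2, while the authors' methods name other versions of STAR and DESeq2. What was deposited is a score: the authors scaled each library's counts by DESeq2 and kept whole numbers. The study describes 4 pools per group, 4 samples left out as outliers and 3 analysed per group; these numbers do not add up, and which pools were removed is not given in the sources used here. DESeq2 was not run here, since these are no longer raw counts.

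Values were analysed with limma 3.58.1 in R 4.3.3 as log2(value + 1), with a trended prior and 1 fit over the 8 groups, for genes with a mean above 5. P-values were adjusted by Benjamini-Hochberg, and calls needed an adjusted p under 0.05 and a log2 fold change beyond 0.585. The fit was tested on simulated data. Python 3.11.15 with pandas 2.3.3 was used for summaries. Lengths and positions came from GENCODE M21. Named genes are the 8 members, the called gene with the largest increase and decrease of each list against sham at 24 h and 7 days, and the 10 most similar genes; others are said to be chosen after their values were seen. The values of 1 gene that this rule named are not reported here. The members and lists were chosen with earlier results of these data known. Pseudocounts, filters, centring, replicate blocks, length and GC correction, 3 other scalings and left-out libraries were tried as alternatives. Same-numbered hemispheres of sham mice correlated over all genes with r of 0.252 to 0.605, while the tMCAO hemispheres did not all pass 0.1. The main fits used no pairs, also between sham hemispheres, and pairing by number entered only as an alternative setting.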

Additional observations from a re-analysis of the deposited data

How the results depend on the processing

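Of 576 fold changes of members under settings other than a left-out library, 538 kept their direction and their side of the threshold, 7 lost a call, 2 gained one and 29 changed sign, none of the last from or to a call. The count of members called against sham at 24 h was 0 instead of 1 with only the compared groups in the fit and with scaling to the pericyte markers, the endothelial markers or the 8 members, and from 24 h to 7 days it was 0 instead of 1 with only the compared groups, the endothelial markers or the 8 members. It was 1 instead of 0 between the tMCAO hemispheres at 24 h with the length and GC correction (Myl9, -0.89), and 1 instead of 0 in the control comparisons with pericyte scaling (Myl9). The 3 scalings were chosen after seeing the data; against sham at 24 h they moved all genes by 0.340 (pericyte), 0.055 (endothelial) and 0.449 (members) on the log2 scale. The cause of these changes was not tested.

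The pairing by replicate number was checked over all genes: same-numbered hemispheres of tMCAO mice correlated with r of 0.067 to 0.488 at 24 h and 0.082 to 0.422 at 7 days, where not every pair passed 0.1, although each of the 6 libraries of every hemisphere pair of groups correlated best with its own number, a hint from the data and not the design. With the replicate block the counts were 1 (sham, 24 h), 0 (sham, 7 days), 0 (hemispheres, 24 h), 1 instead of 0 (hemispheres, 7 days, Acta2 at -0.66, adjusted p = 0.0047), 1 (7 days against 24 h), 0 (difference of effects) and 0 (control comparisons). Between hemispheres 4 of 8 members had an adjusted p under 0.05 with the block at either time, among them Myl9 at 24 h (-0.58, adjusted p = 0.00109), short of 1.5-fold.

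Signs changed as follows. Against sham at 24 h: Acta2 0.053 and Des 0.368 with member scaling, Des 0.259 with pericyte scaling and Cnn1 -0.067 with the length and GC correction. At 7 days: with pericyte scaling Myh11 0.091, Des 0.131, Myl9 0.12 and Mylk 0.123, with member scaling Myh11 0.012, Des 0.052, Myl9 0.041 and Mylk 0.044, with endothelial scaling Lmod1 -0.098, and with the length and GC correction Mylk 0.035. Between hemispheres at 24 h: Acta2 0.01 and Tagln 0.011 with pericyte, 0.013 and 0.014 with endothelial scaling. Between hemispheres at 7 days: Des -0.105 with endothelial scaling, Lmod1 0.284 with member scaling and 0.036 with the length and GC correction. From 24 h to 7 days: Tagln -0.143 and Mylk -0.058 with endothelial, Tagln -0.069 with member scaling. Difference of effects: Acta2 -0.14 and Tagln -0.136 with endothelial, -0.136 and -0.132 with member scaling, and Des 0.032 with the length and GC correction.

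Leaving out a library gave 0 to 4 called members against sham at 24 h (4 without tMCAO replicate 3: Tagln, Myh11, Myl9 and Mylk; 0 without any other), 0 to 1 between hemispheres at 24 h (Cnn1 without ipsilateral tMCAO replicate 2, Myl9 without replicate 3) and 0 to 1 from 24 h to 7 days (Myl9 without 24 h replicate 3 or 7-day replicate 1, Cnn1 without 24 h replicate 2). Fold changes that changed sign ranged, against sham at 24 h, from -0.287 to 0.437 (Cnn1) and -0.255 to 0.186 (Des); at 7 days from -0.60 to 0.001 (Acta2), -0.5 to 0.113 (Myh11), -0.265 to 0.353 (Lmod1) and -0.417 to 0.095 (Mylk); between hemispheres at 24 h from -0.562 to 0.118 (Acta2), -0.566 to 0.194 (Tagln) and -0.713 to 0.079 (Lmod1), and at 7 days from -0.14 to 0.19 (Des) and -0.444 to 0.23 (Lmod1); from 24 h to 7 days from -0.044 to 0.635 (Acta2), -0.313 to 0.447 (Tagln), -0.156 to 0.636 (Lmod1) and -0.139 to 0.485 (Mylk); for the difference of effects from -0.275 to 0.405 (Acta2), -0.346 to 0.413 (Tagln) and -0.408 to 0.038 (Des).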
